A study of Gallus gallus with 24 samples.

Results

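The hepatic transcript profiles of fat line (FL) and lean line (LL) chickens were compared at 7 wk of age on 4 two-colour cDNA arrays, which were chosen by their label of age from the 24 arrays of a series that covered 6 ages from 1 to 11 wk. Each array carried liver RNA of 1 FL bird and 1 LL bird, so that 4 FL birds and 4 LL birds were represented. Both genotypes came from divergent selection on abdominal fat weight over 7 generations, and all birds were reared under a standard broiler protocol with no further treatment. FL RNA was in channel 1 (Alexa Fluor 555) on replicates 1 and 3 and in channel 2 (Alexa Fluor 647) on replicates 2 and 4, with LL RNA in the other channel. The labels name no founder breed and no sex, and a difference between selected genotypes can hold drift as well as response to selection, which cannot be told apart here.

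In birds, the liver is the main site of fatty acid synthesis, and most of the fat stored in adipose tissue is made there and exported as triglyceride in very low density lipoproteins. Fatty acid synthase and acetyl-CoA carboxylase build the fatty acid chain, stearoyl-CoA desaturase desaturates it, mitochondrial glycerol-3-phosphate acyltransferase starts triglyceride assembly, and apolipoprotein B carries the product into blood. The hepatocyte is also the source of most plasma proteins, which include transthyretin, clotting factors and complement.

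Every value below is a ratio of the channels of 1 array, taken as log2. Neither the base of the logarithm nor which channel is on top is stated in the sources, and whether the dye-swapped columns had been turned before deposit is not stated either. The values were therefore read in 2 ways from the same fit. In the ratio turned by dye, the sign of replicates 1 and 3 was reversed. A positive value is then FL divided by LL if channel 2 was on top and the columns had not been turned before deposit. If the columns had already been turned, the turned ratio compares the channels whichever genotype they held. In the ratio as deposited, no sign was changed, so that a positive value compares FL with LL only if the columns had already been turned, and otherwise it compares the channels whichever genotype they held. Values are reported as positive or negative and not as higher in a genotype.

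A ratio was present for 18968, 18795, 18960 and 18956 of the 19200 spots on replicates 1 to 4. Replicate 1 stood apart from the other arrays, since its median was 0.33 and the medians of its 48 blocks of spots lay between 0.12 and 0.54, whereas block medians on replicates 2 to 4 lay between -0.13 and 0.04. Each array was centred on the median of each block before any comparison. After centring, replicate 1 correlated with 11 wk replicate 4 at r = 0.849 across 18968 spots as deposited, although these arrays had opposite dye orientation, and the next highest pair of the series reached 0.705. Within 7 wk, replicate 1 correlated at 0.155, 0.263 and 0.221 with replicates 2, 3 and 4, and the other pairs lay between 0.292 and 0.558. Spots share the array and its hybridisation, so these correlations are descriptions. Results are given with and without replicate 1. Values without it are coefficients of the fit and not plain means of the arrays left. In that fit replicate 3 is the only 7 wk array with FL in channel 1. It therefore weighs as much as replicates 2 and 4 together.

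**Figure D1:**
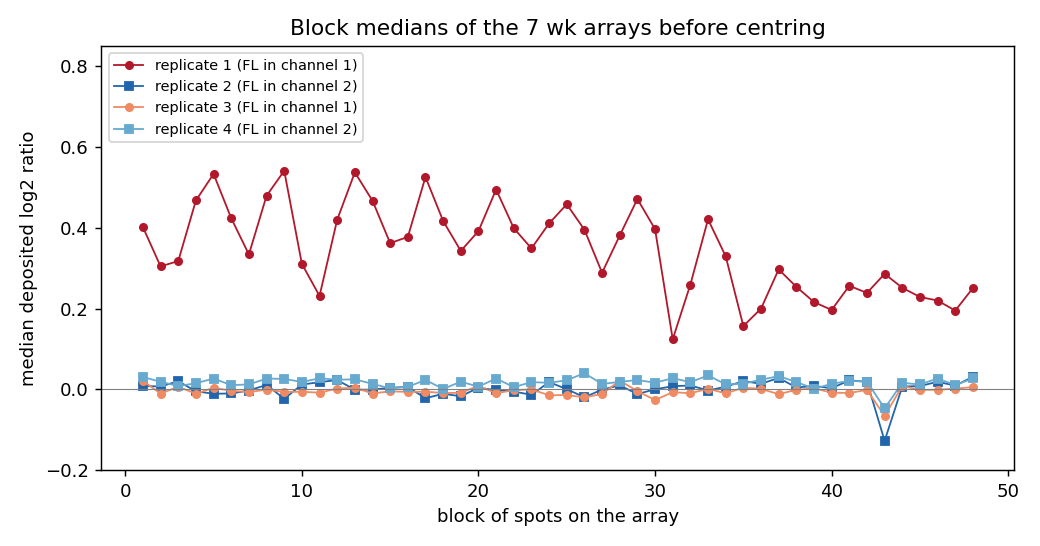
Median deposited log2 ratio (y axis) in each of the 48 blocks of spots (x axis) on the 4 arrays of 7 wk before centring. Replicate 1 lies between 0.12 and 0.54 in every block, and replicates 2 to 4 lie between -0.13 and 0.04.

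The first reading asked which genes had opposite deposited ratios in the dye orientations. Such a value follows the genotype only if the columns had not been turned before deposit. Of 14734 features, 6349 genes with a symbol and 8385 single unnamed probes, 28 passed a Benjamini-Hochberg adjusted p of 0.05 in limma and are referred to as called, which is 0.190% of those tested. Of these, 10 were positive (0.0679%) and 18 were negative (0.122%), and 16 had a symbol. The sign was the same on all 4 arrays for 19 of the 28 and for 8.10% of all features. Calls rest on the same 4 values, so a higher share among them is built in. The values were small, with 23 of the 28 past 1.2-fold and 0 past 1.5-fold on the log2 scale. The median 95% confidence interval extended 0.14 to either side of a value, which is 1.10-fold.

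CDCP1 (CUB domain containing protein 1, a cell surface protein) had the largest positive turned value among the called genes with a symbol, with 0.38, 0.60, 0.10 and 0.87 on replicates 1 to 4. Its mean was 0.49 ± 0.07 (SE of the fit, adjusted p = 0.0144 in limma), and its value without replicate 1 was 0.42 (adjusted p = 0.0378). GPHN (gephyrin, which anchors inhibitory receptors at synapses and takes part in molybdenum cofactor synthesis) had 0.15, 0.61, 0.29 and 0.47. All 4 arrays were positive, the mean was 0.38 ± 0.05 (adjusted p = 0.0151 in limma), and the call held without replicate 1 (0.41, adjusted p = 0.0195).

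On the negative side, GLCCI1 (glucocorticoid induced 1, a transcript that rises in lymphoid cells of mice after glucocorticoid) had similar values on all arrays, with -0.40, -0.42, -0.28 and -0.55 on replicates 1 to 4 and a mean of -0.41 ± 0.06 (adjusted p = 0.0163 in limma). EPHX2 (soluble epoxide hydrolase, which converts fatty acid epoxides to diols) had -0.35, -0.32, -0.70 and -0.20 and a mean of -0.39 ± 0.07 (adjusted p = 0.0475 in limma). It was called without replicate 1 as well (-0.48, adjusted p = 0.0303), whereas GLCCI1 was then at an adjusted p of 0.0611. ABCA1 (ATP binding cassette transporter A1, which moves cholesterol and phospholipid to apolipoprotein A-I) had -0.52, -0.02, -0.61 and -0.36. Replicate 2 was close to 0 for this gene, the mean was -0.38 ± 0.07 (adjusted p = 0.0475 in limma), and the adjusted p without replicate 1 was 0.0758.

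PPIC (peptidylprolyl isomerase C, a cyclophilin that helps proteins to fold) had -0.39, -0.69, -0.11 and -0.55 on replicates 1 to 4, with a mean of -0.44 ± 0.08 (adjusted p = 0.0475 in limma). VKORC1 (vitamin K epoxide reductase, which recycles the cofactor for clotting factor carboxylation) rested largely on replicate 1, with -1.02 there against 0.00, -0.38 and -0.30 on replicates 2 to 4. Its mean was -0.43, and its value in the fit without replicate 1 was -0.27 (adjusted p = 0.146 in limma). SPATA46, LZTR1, PTCHD1, RSAD1, SLC15A4 (a lysosomal transporter of histidine and small peptides) and TMBIM4 had the same sign on all 4 arrays and means between -0.39 and -0.23. In each of these genes but PTCHD1, the values furthest below 0 came from replicates 2 and 4. SLC15A4 had -0.02, -0.40, -0.15 and -0.53 on replicates 1 to 4. TMBIM4 had -0.11, -0.32, -0.0034 and -0.49, so that replicate 3 was close to 0. The genes YBX3 (a cold shock domain protein that binds RNA), USP35 (a deubiquitinase) and PPP1RL were called although their sign was not the same on all 4 arrays. YBX3 had 0.05, -0.46, -0.07 and -0.52, and USP35 had 0.01, -0.79, 0.22 and -0.74, so that in both genes the values furthest below 0 came from the arrays with FL in channel 2. Without replicate 1, YBX3 and PPP1RL were still called, whereas USP35 (adjusted p = 0.0921), PPIC (0.133), LZTR1 (0.137), PTCHD1 (0.145), TMBIM4 (0.119), RSAD1 (0.0721), SLC15A4 (0.06) and SPATA46 (0.0588) were not.

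**Figure D2:**
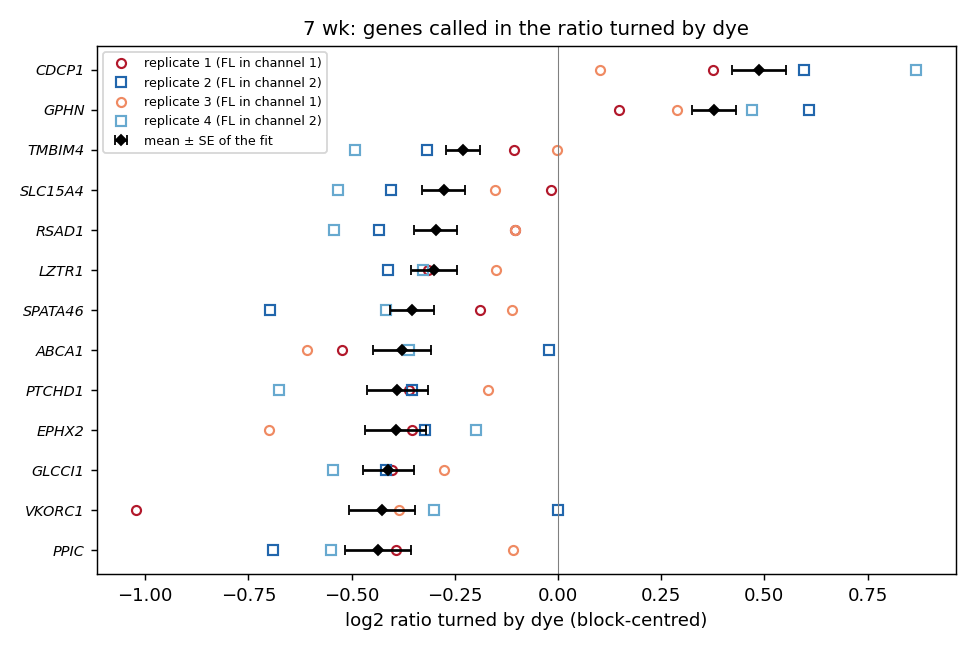
Log2 ratio turned by dye (x axis) of 13 called genes (rows) on each of the 4 arrays of 7 wk, with circles for FL in channel 1 and squares for FL in channel 2. Black diamonds are the mean with the SE of the fit, and 2 of the genes, CDCP1 and GPHN, lie above 0. The called genes YBX3, USP35 and PPP1RL (mean 0.30), whose sign differed between arrays, are not drawn.

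The median residual SD was 0.155 at 7 wk, the highest of the 6 ages, against 0.0798 to 0.122 at the other ages. The fit pooled the spread of all 24 arrays, so SE, confidence intervals and adjusted p at 7 wk can be too small in both readings. With the 4 arrays of 7 wk alone, 0 features were called. Of 14734 features, 745 then had an unadjusted p under 0.05 in limma, against 1952 with all 24 arrays. The count was 36 without replicate 1 (8 of them among the 28), 162 without replicate 2, 481 without replicate 3 and 172 without replicate 4. Of the 13 called genes plotted by array, 3, 10, 12 and 7 were still called without replicates 1, 2, 3 and 4. All 13 kept their sign, which was fixed beforehand, since none had turned values of opposite sign among the 4 arrays. Centring on the overall median of each array gave 11 positive and 34 negative calls, no centring gave 4 and 284, and block centring with scaling of the arrays to a common spread gave 0 calls (1157 at an unadjusted p under 0.05 in limma).

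Genes of lipid synthesis were of interest because the genotypes were selected on fat weight, and none of those below was called in the turned ratio. FASN (fatty acid synthase) had -0.13, -0.61, -0.26 and -0.01 on replicates 1 to 4, with a mean of -0.25 ± 0.24 and a 95% confidence interval from -0.77 to 0.26 (adjusted p = 0.704 in limma). Its 2 probes disagreed in sign, with -0.57 and 0.07. THRSP (thyroid hormone responsive Spot 14, a nuclear protein of lipogenic tissue) had 0.61, -0.27, 0.70 and -0.23, so that its turned sign followed the dye orientation (mean 0.20 ± 0.16). As deposited THRSP was negative on all 4 arrays, with a mean of -0.45 ± 0.16 that did not pass the test (adjusted p = 0.0675 in limma). In the turned ratio, ACACA (acetyl-CoA carboxylase alpha) had a mean of -0.03 ± 0.19. SCD (stearoyl-CoA desaturase) had a narrower interval, from -0.08 to 0.25 around a mean of 0.09 ± 0.08. GPAM (mitochondrial glycerol-3-phosphate acyltransferase) had -0.38, -0.45, 0.76 and 0.25 and an interval from -0.63 to 0.72, the widest of these genes. The intervals of ACACA and GPAM include 1.2-fold in either direction and that of FASN includes it on the negative side. Differences of this size in those directions were therefore not excluded for these genes.

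The list of fatty acid synthesis had 0 called of 12 measured members in the turned ratio, with a median of -0.03 beside -0.01 over all features. In this list 1 member had an unadjusted p under 0.05 in limma, beside 13.2% of all features (1952 of 14734). Desaturation and elongation had 0 called of 10 (median -0.01), triglyceride assembly 0 of 13 (0.01) and fatty acid oxidation 0 of 20 (0.02), with 0, 2 and 1 members at an unadjusted p under 0.05. Cholesterol synthesis and uptake had 0 called of 18, and 3 members had an unadjusted p under 0.05 in limma, beside the 13.2% of all features. Values were negative in 16 of the 18, beside 7794 of 14734 features. The median was -0.13, which was -0.05 without replicate 1. By array the list median was -0.23, -0.08, -0.06 and 0.02 on replicates 1 to 4, and the members share these arrays. The members of this list with the lowest values were LSS (lanosterol synthase, -0.30 ± 0.12) and SREBF2 (the main transcriptional activator of cholesterol synthesis genes, -0.29 ± 0.11). SREBF2 had -0.86, -0.48, 0.01 and 0.16 on replicates 1 to 4, so the value came from replicates 1 and 2. Among the other hepatic lists, 1 member each was called in lipoproteins (ABCA1, of 18), coagulation (VKORC1, of 21), xenobiotic metabolism (EPHX2, of 30), hormone action (GLCCI1, of 25) and chaperones (PPIC, of 30), all negative. Over all features 0.190% were called in the turned ratio, and 18 of those 28 calls were negative. Amino acid metabolism had 0 called of 33 and 12 members at an unadjusted p under 0.05 in limma, beside the 13.2% of all features. Of the 33, 21 were positive and 12 negative. The list median was 0.07, -0.01, 0.27 and -0.06 on replicates 1 to 4, and the members share these arrays.

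Several genes of other hepatic pathways had values that did not pass the test. PYGL (liver glycogen phosphorylase, which releases glucose from glycogen) had -0.15, -0.36, -0.04 and -0.45, a mean of -0.25 ± 0.05 and an adjusted p of 0.0565 in limma. ASNSD1 (asparagine synthetase domain containing 1) had -0.53, -0.22, -0.47 and -0.30, with a mean of -0.38 ± 0.09 (adjusted p = 0.0799). PICK1 (a PDZ domain protein that binds protein kinase C) had -0.39, -0.89, -0.07 and -0.37, with a mean of -0.43 ± 0.11 (adjusted p = 0.102). All 3 genes were negative on all 4 arrays. AGT (angiotensinogen, a plasma protein made by hepatocytes) was positive on all 4 arrays, with 0.15, 0.71, 0.49 and 0.42 and a mean of 0.44 ± 0.16 (adjusted p = 0.237).

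The second reading asked which genes had the same ratio on the 4 columns as deposited. Here 1995 features were called (13.5%), 1154 positive (7.83%) and 841 negative (5.71%), and 910 of them had a symbol. Of the 1995, 1658 had the same sign on all 4 arrays, beside 27.0% of all features, a difference that the calling itself favours. Past 1.2-fold were 1242, past 1.5-fold 178 and past 2-fold 15. The mean of replicates 1 and 3 and the mean of replicates 2 and 4 correlated at r = 0.461 across 14734 features, which share arrays and are not independent replicates. Of the 28 features called in the turned ratio, 17 were called in this reading too. The 9 of them with a symbol were CDCP1, SPATA46, YBX3, USP35, RSAD1, SLC15A4, TMBIM4, PPP1RL and VKORC1.

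**Figure D3:**
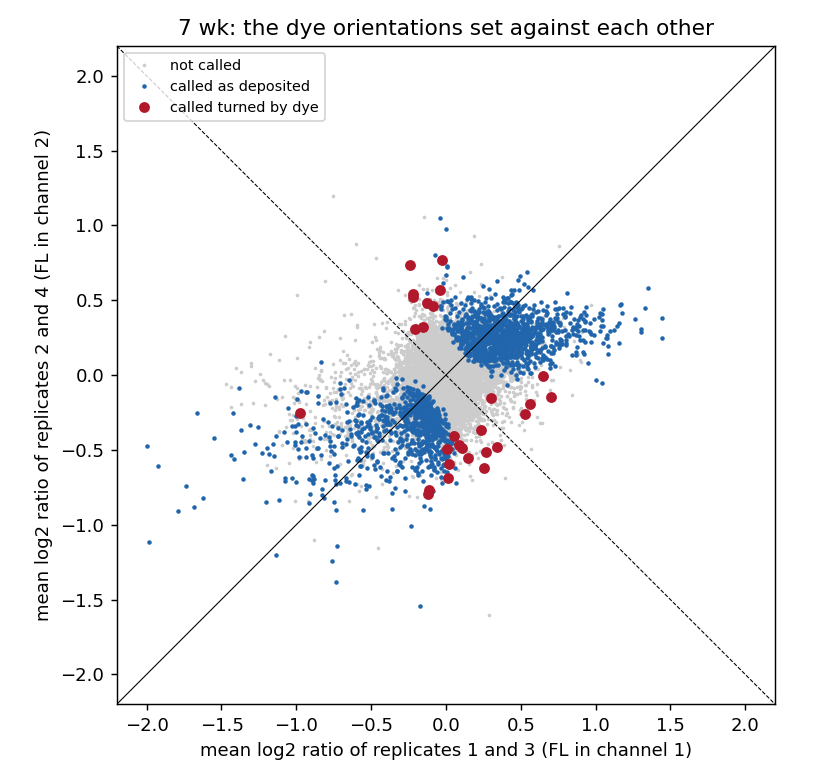
Each point is 1 of 14734 features, with the mean log2 ratio as deposited of replicates 1 and 3 (FL in channel 1) on the x axis and of replicates 2 and 4 (FL in channel 2) on the y axis. Features called as deposited (blue, 1995 in all, of which 17 are drawn in red) lie along the solid diagonal and the 28 called in the turned ratio (red) lie mostly off it, toward the dashed line on which the orientations are opposite.

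The largest negative values as deposited were found in genes of several unrelated functions. TMEM123 (a transmembrane mucin-like protein) had -1.70, -0.90, -2.14 and -0.31 on replicates 1 to 4 and a mean of -1.26 ± 0.29 (adjusted p = 0.0121 in limma). PSPH (phosphoserine phosphatase, the last step of serine synthesis) had -1.73, -0.75, -2.26 and -0.19, with a mean of -1.23 ± 0.32 (adjusted p = 0.0224). In both genes replicates 1 and 3 were well below replicates 2 and 4. CYP2AC1, a cytochrome P450, had -1.01, -0.83, -2.24 and -0.81 (mean -1.22 ± 0.23), so that replicate 3 was apart from the other arrays, and CYP2C18, another cytochrome P450, had -1.38, -1.25, -0.14 and -1.23 (mean -1.001 ± 0.24), with replicate 3 near 0. CYP2C18 was not called without replicate 1 (-0.69, adjusted p = 0.0981).

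ATIC, the bifunctional enzyme of the last steps of purine synthesis, had -1.13, -0.42, -1.97 and -0.42 on replicates 1 to 4 and a mean of -0.99 ± 0.22 (adjusted p = 0.0106 in limma). TTR (transthyretin, a plasma carrier of thyroid hormone and retinol) had -1.67, -0.64, -1.20 and -0.43, and its 3 probes agreed, with means between -1.07 and -0.90. APOB (apolipoprotein B) had similar values on all arrays, with -0.77, -0.98, -1.07 and -0.73, a mean of -0.89 ± 0.21 (adjusted p = 0.0144) and -0.96 without replicate 1 (adjusted p = 0.0292). Further genes among the 12 largest negative values were ATMIN (-1.17), GGACT (-1.06), SPG7 (a mitochondrial protease, -0.99), MRPS15 (a mitochondrial ribosomal protein, -0.98) and LZIC (-0.93), of which ATMIN was not called without replicate 1 (adjusted p = 0.0705).

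The largest positive values as deposited reached 0.85. FILIP1L (filamin A interacting protein 1 like) had 1.52, 0.30, 1.37 and 0.19 on replicates 1 to 4, with a mean of 0.85 ± 0.20 (adjusted p = 0.0138 in limma). ELAVL1 (an RNA binding protein that stabilises transcripts) had 1.02, 0.44, 1.30 and 0.51 (mean 0.82 ± 0.15), and RMDN3, a mitochondrial outer membrane protein, had 1.15, 0.57, 0.96 and 0.31 (mean 0.75 ± 0.08, adjusted p = 0.000435 in limma). Replicates 1 and 3 exceeded replicates 2 and 4 in each of these 3 genes. SPARC (osteonectin, a matrix protein of stellate and other mesenchymal cells) had 1.34, 0.67, 0.50 and 0.18 and a mean of 0.67 ± 0.13. Its value without replicate 1 was 0.46 (adjusted p = 0.0317 in limma). CTDSPL2 (0.82), SP4 (0.72), ZNF407 (0.70), SCARA5 (a scavenger receptor that binds ferritin, 0.68), AP3B1 (0.64), FLI1 (an ETS transcription factor, 0.64), GDF9 (0.64) and NCBP3 (0.63) completed the 12 genes. AP3B1 and FLI1 were not called without replicate 1 (adjusted p = 0.0966 and 0.0755).

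**Figure D4:**
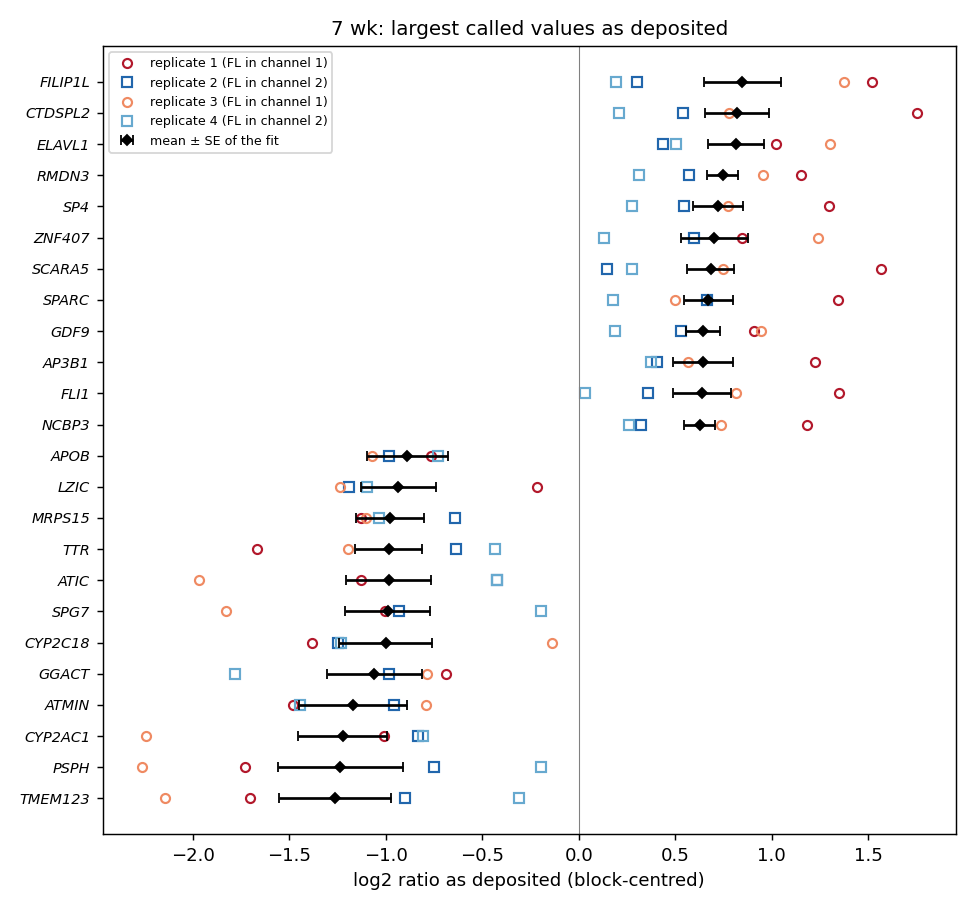
Log2 ratio as deposited (x axis) of the 12 largest positive and 12 largest negative called genes with the same sign on all 4 arrays of 7 wk (rows), with circles for FL in channel 1 and squares for FL in channel 2. Black diamonds are the mean with the SE of the fit, from 0.85 for FILIP1L to -1.26 for TMEM123.

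The counts as deposited depended on single arrays as well, with 1921 called without replicate 1 (1205 of them among the 1995), 1096 without replicate 2, 1292 without replicate 3 and 1184 without replicate 4. Of the 70 called genes that were followed by name, 47, 37, 39 and 40 were still called without replicates 1, 2, 3 and 4. All 70 kept their sign, and for those with the same sign on all 4 arrays this was fixed beforehand. With the 4 arrays of 7 wk alone, 0 features were called, and 2616 had an unadjusted p under 0.05 in limma. No centring gave 2916 positive and 279 negative calls, against 1154 and 841 with block centring.

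Ribosomal proteins, the structural proteins of the ribosome, formed the list with the most called members as deposited. Of 43 measured, 19 were called negative and 1 positive, beside 5.71% and 7.83% of all features, and the list median was -0.29 beside 0.00 over all features. The list median was -0.37, -0.21, -0.40 and -0.28 on replicates 1 to 4. It was negative in both dye orientations, which cannot tell genotype from channel, since whether the columns had been turned is not known. Without replicate 1 the list median was -0.31, with 18 called negative and 1 positive. The called negative members ranged from -0.74 (RPS23) to -0.22 (RPL6), and both of these genes lost their call without replicate 1 (adjusted p = 0.0547 and 0.132). The 4 arrays lay close together for RPS20, with -0.32, -0.43, -0.42 and -0.31 and a mean of -0.37 ± 0.06 (adjusted p = 0.00335 in limma). The member called positive, RPS15, had -0.22, 0.31, 0.07 and 1.29, so that its value came from replicate 4. In the turned ratio 0 of the 43 were called in limma (2 at an unadjusted p under 0.05, beside 13.2% of all features) and the median was 0.07. Probes for ribosomal proteins can share sequence with retrocopies, which was not examined here.

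Hepatocyte markers, most of them plasma proteins, also had a negative median as deposited. All 10 measured hepatocyte markers were negative, with a median of -0.30, beside 7381 of 14734 features with a negative value. Of the 10, 3 were called, beside 5.71% of all features called negative. These were APOB, TTR and APOH (apolipoprotein H, -0.74 ± 0.22, with an adjusted p of 0.128 in limma without replicate 1). ALB (albumin) had -0.17, -0.13, -0.35 and -0.21 and a mean of -0.21 that did not pass the test (adjusted p = 0.474 in limma). The median of this list was -0.30, -0.23, -0.67 and -0.05 on replicates 1 to 4, and turned by dye it was 0.21 with 0 called. Ratios carry no expression level, so the markers could not be used to check that the samples were liver. Bulk RNA also cannot separate fewer cells of a type from less RNA per cell.

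Among plasma carriers, TTR and GC (the vitamin D binding protein, -0.76 ± 0.19) were called negative and OVALX, an ovalbumin family serpin, was called positive (0.19 ± 0.05), out of 23. The complement list had 3 called negative and 0 positive of 17, beside 5.71% and 7.83% of all features. MBL2 (mannose binding lectin, a starter of the lectin pathway) had -1.02, -0.47, -0.70 and -0.50 and a mean of -0.67 ± 0.13 (adjusted p = 0.00517 in limma), and its protease MASP1 had a mean of -0.31 ± 0.07. C4, which this pathway cleaves, had a mean of -0.32 ± 0.09 and was not called without replicate 1 (adjusted p = 0.0715), and C2 (0.17 ± 0.06) and C4A (0.11 ± 0.20) had positive means that did not pass the test. In coagulation, F10 (clotting factor X, -0.49 ± 0.16) and VTN (vitronectin, -0.66 ± 0.19) were called negative and KNG1 (kininogen, 0.52 ± 0.09) and VKORC1 (0.28 ± 0.08) were called positive, of 21. VKORC1 was thus called in both readings, and as deposited its adjusted p was 0.285 without replicate 1, and that of VTN was 0.116.

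In xenobiotic metabolism 6 of 30 members were called negative and 0 positive, beside 5.71% and 7.83% of all features, with a median of -0.18. Without replicate 1, 4 were called negative, and CYP2C18, GSTA3, SULT1C3, CYP3A5 and NQO1 were not among them (adjusted p = 0.0981, 0.109, 0.157, 0.161 and 0.0554). Besides CYP2C18, the 6 members called with all arrays included GSTA3 and GSTA2, glutathione S-transferases, with means of -0.82 ± 0.21 and -0.61 ± 0.16. CYP3A5, a cytochrome P450 of drug and steroid oxidation, had -1.003, 0.07, -0.67 and 0.11 as deposited, so that its sign followed the dye orientation. It was called as deposited (-0.37 ± 0.11, adjusted p = 0.0374 in limma), and its turned value was 0.46 (adjusted p = 0.0823).

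Calls among lipid and carbohydrate genes as deposited are set beside the 13.5% of all features that were called. ACSL1 (long-chain acyl-CoA synthetase 1, which activates fatty acids) had -0.50, -0.46, -1.28 and -0.97, a mean of -0.80 ± 0.15 (adjusted p = 0.00457 in limma) and was the only called member of 13 in triglyceride assembly. FBP1 (fructose-1,6-bisphosphatase, a control point of gluconeogenesis) had -0.84, -0.65, -0.65 and -0.75 and a mean of -0.72 ± 0.20. ENO1 (enolase, -0.78 ± 0.25) and PGM1 (phosphoglucomutase, -0.32 ± 0.06) were called negative, and HK2 (hexokinase 2, 0.24 ± 0.08) and PDK3 (a kinase that inactivates pyruvate dehydrogenase, 0.17 ± 0.05) positive, of 26 genes of glucose metabolism. Without replicate 1, FBP1, ENO1, HK2 and PDK3 were no longer called, with adjusted p of 0.0816, 0.175, 0.0849 and 0.23.

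PGD (6-phosphogluconate dehydrogenase, a source of NADPH for lipid synthesis) was the called member of 12 in fatty acid synthesis, with -0.02, 0.65, 0.28 and 0.14 and a mean of 0.26 ± 0.07. ECI1, an isomerase of unsaturated fatty acid oxidation, was called negative (-0.24 ± 0.06) of 20, and HACD2, a dehydratase of chain elongation, negative of 10, although its 2 probes disagreed, with -0.83 and 0.03, and its adjusted p was 0.0771 without replicate 1. In lipoproteins and lipid transport, APOB, APOH and CETP (cholesteryl ester transfer protein, -0.21 ± 0.06) were called negative and FABP5 (a fatty acid binding protein, 0.29 ± 0.07, with an adjusted p of 0.0702 without replicate 1) positive, of 18. Cholesterol synthesis and uptake had 0 of 18 and bile acid synthesis and transport had 0 of 6. In amino acid metabolism PSPH, PHGDH (the first step of serine synthesis, -0.44 ± 0.11) and ATIC were called negative, of 33, beside 5.71% of all features. CTH (cystathionine gamma-lyase, 0.29 ± 0.05) and ARG2 (mitochondrial arginase, 0.29 ± 0.07) were called positive, beside 7.83% of all features. PSAT1, the enzyme between PHGDH and PSPH in serine synthesis, had a mean of 0.22 ± 0.22 that did not pass the test (adjusted p = 0.537 in limma).

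Matrix genes had 5 positive calls and 1 negative call of 28, beside 7.83% and 5.71% of all features. COL6A1 (0.30 ± 0.05), LAMB1 (0.54 ± 0.09), FBN1 (0.35 ± 0.08), SPARC and MMP2 (0.45 ± 0.11) were called positive and COL4A1 (-0.23 ± 0.06) negative in this list of extracellular matrix and stellate cell genes, which had a median of 0.05. COL4A1 was not called without replicate 1 (adjusted p = 0.0607). LAMB1 (laminin beta 1, of basement membranes) had 0.96, 0.35, 0.59 and 0.24. MMP2 (a matrix metalloproteinase) had 1.15, 0.05, 0.29 and 0.32, and without replicate 1 its adjusted p was 0.125. Among endothelial genes KDR (a receptor for vascular endothelial growth factor) was called positive, with 0.28, 0.39, 0.51 and 0.30 and a mean of 0.37 ± 0.06 (adjusted p = 0.00394 in limma), and STAB1 (a scavenger receptor of sinusoidal endothelium) negative (-0.21 ± 0.05), of 11.

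Calls in the following cell type lists are set beside 7.83% of all features called positive and 5.71% negative as deposited. Of 18 macrophage and antigen presentation genes, 17 were negative, beside 7381 of 14734 features. The median of this list was -0.16, with -0.11, -0.09, -0.21 and -0.20 on replicates 1 to 4. CTSB (-0.45 ± 0.09), CTSS (-0.23 ± 0.07), both lysosomal cathepsins, and B2M (beta-2-microglobulin, -0.52 ± 0.15) were called negative. CSF1R (the receptor for macrophage growth factors, 0.20 ± 0.06) was called positive. Proliferation genes had 2 called positive (PCNA and CENPH) and 4 negative (CCNB3, CCNB1, RRM1 and RRM2) of 19. SPTB (erythrocyte spectrin, 0.42 ± 0.09) and TPM1 (tropomyosin 1, 0.36 ± 0.07) were called positive, of 7 erythrocyte and 6 muscle genes. CTSS (adjusted p = 0.0576), PCNA (0.0661), CCNB3 (0.0932), CCNB1 (0.06) and RRM2 (0.157) were not called without replicate 1. Lymphocyte (3), adipocyte (6) and bile duct (4) markers had 0 called in either reading. The part of other cell types in the hepatocyte and matrix values was not tested.

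The proteasome, beside 7.83% of all features called positive and 5.71% negative, had 3 positive (PSMA7, PSMC5 and PSMF1) and 0 negative of 32, with a median of -0.03. The mitochondrial respiratory chain had 1 positive (NDUFS7) and 3 negative (NDUFB4, UQCRFS1 and ATP5H) of 39, with a median of -0.05. Chaperones had PPID (0.52 ± 0.12) and CCT4 positive and CCT5 negative of 30, and hormone action had NR3C2 (the mineralocorticoid receptor, -0.19 ± 0.05) and FOXO1 (a transcription factor restrained by insulin, -0.31 ± 0.06) negative of 25. Without replicate 1, PSMF1 (adjusted p = 0.0766), NDUFS7 (0.0929), NDUFB4 (0.108), PPID (0.0618) and CCT5 (0.0513) were not called. FOXO1 had 0.04, -0.52, -0.18 and -0.59, so that replicates 2 and 4 carried the value.

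**Figure D5:**
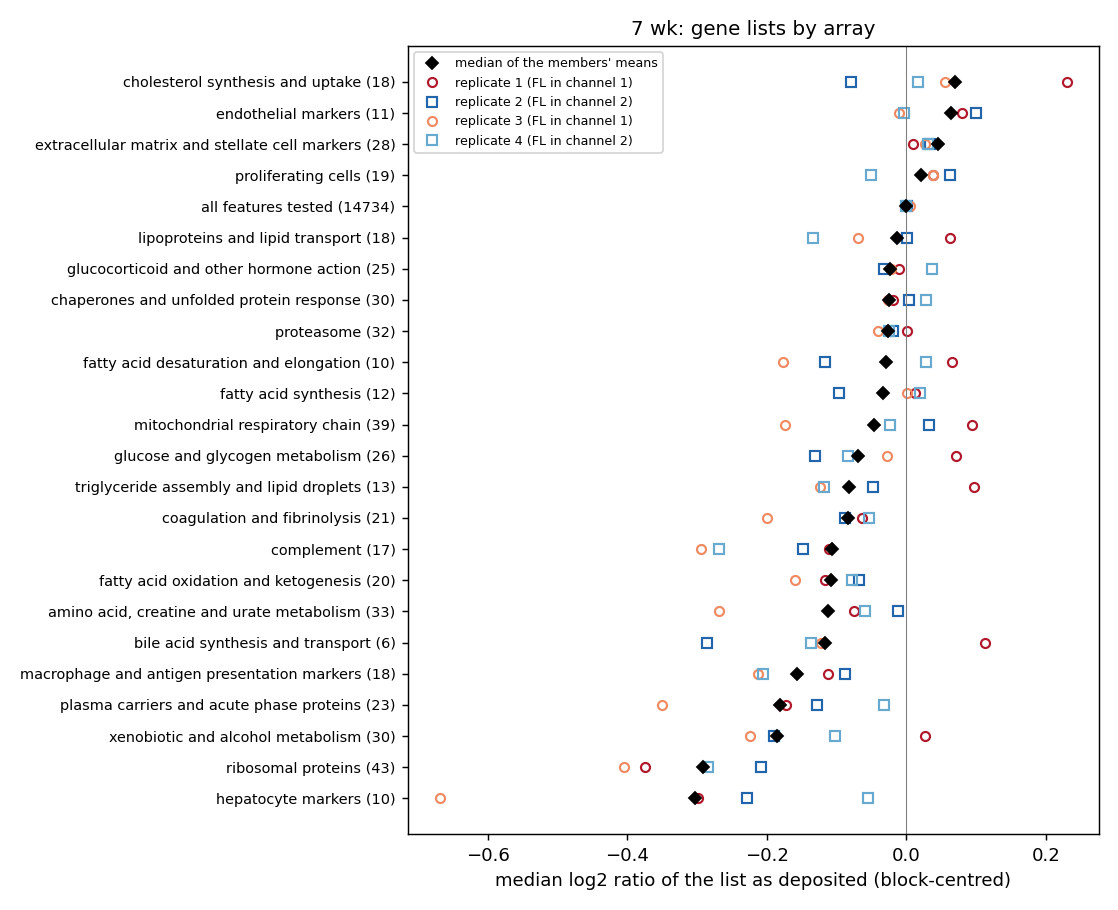
Median log2 ratio as deposited (x axis) of the measured members of 23 gene lists and of all features tested (rows, number of members in brackets) on the 4 arrays of 7 wk, with circles for FL in channel 1 and squares for FL in channel 2. Black diamonds are the median of the members' means, the lowest being -0.30 for hepatocyte markers and -0.29 for ribosomal proteins, beside 0.00 for all features tested.

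The last comparison asked whether 7 wk differed from the mean of the other 5 ages. In the turned ratio 12 features were called (0.0814%), 4 positive (0.0271%) and 8 negative (0.0543%). GLCCI1 and ABCA1 both had a contrast of -0.45 (ABCA1 ± 0.08, adjusted p = 0.0396 in limma). ABCA1 stood at -0.38 at 7 wk against 0.03, 0.08, 0.20, 0.05 and -0.03 at 1, 3, 5, 9 and 11 wk. CDCP1 (0.48), GPHN (0.35), SPATA46 (-0.34), USP35 (-0.36) and YBX3 (-0.26) were the other named genes, and all 7 kept their sign in the alternatives run. Of the 7, GPHN and YBX3 were still called without replicate 1, 1 gene was called without the as-deposited coefficient, and 0 were called with scaling or array weights. EPHX2 and PPIC, which were called at 7 wk, had contrasts of -0.31 and -0.34 that did not pass the test (adjusted p = 0.124 for both). The count was 21 without replicate 1 (3 of them among the 12), 139 without replicate 2, 330 without replicate 3 and 122 without replicate 4, and with no centring it was 1 positive and 41 negative.

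As deposited, 32 features differed from the other ages (0.217%), 25 positive (0.170%) and 7 negative (0.0475%). SLC27A1 (fatty acid transport protein 1) had 0.43, 0.34, 0.47 and 0.53 on the 7 wk arrays, and its contrast of 0.40 ± 0.07 (adjusted p = 0.0293 in limma) was set against means of -0.13, 0.12, -0.02, 0.13 and 0.14 at 1, 3, 5, 9 and 11 wk. TMEM167A had 0.54, 0.36, 0.40 and 0.62 against means between -0.09 and 0.14 at the other ages, with a contrast of 0.46 ± 0.08 (adjusted p = 0.0387). SCAMP4 (0.47), CTC1 (a telomere maintenance protein, 0.42) and SRRL (0.37) also had positive contrasts, and FAM171A1 (-0.40), ENKUR (-0.29) and FAM169A (-0.28) negative ones. The count was 523 without replicate 1, 60 without replicate 2, 0 without replicate 3 (1989 at an unadjusted p under 0.05 in limma) and 139 without replicate 4. Centring on array medians gave 78 positive and 13 negative calls, no centring 500 and 4, and scaling 5 and 0.

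Across the ages, 7 wk had 28 features called in the turned ratio, against at most 1 at any other age. These counts used a spread pooled over the ages, and the residual SD was highest at 7 wk. The 7 wk count was 0 with the 7 wk arrays alone, with scaling and with array weights. The counts therefore cannot show that turned calls are particular to 7 wk. As deposited, the counts at the 6 ages, youngest first, were 30, 1385, 48, 1995, 2875 and 1890. The 7 wk values as deposited correlated with those of 3, 5, 9 and 11 wk at r between 0.549 and 0.70 across 14734 features and with those of 1 wk at 0.151. Turned by dye, these correlations lay between -0.093 and 0.161. The features share probes and 7 wk replicate 1 resembled 11 wk replicate 4, so the correlations are given as descriptions.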

How the data were processed

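The deposited value table was used, which holds 1 log2 ratio per spot and array as normalized by the authors. The base of the logarithm, the channel on top of the ratio and the normalization method are not given in the sources used here, and a natural logarithm would change the fold values. Each array was centred on the median of each of its 48 blocks of 400 spots. Of 19200 probes, 10601 had a symbol in the probe annotation (10455 matched in RefSeq by gene ID). Probes of a symbol were averaged, and 14734 of 15027 features had a value on 4 arrays at 7 wk and on at least 3 at each other age. STUB1 and DIO1, given to 95 and 30 probes of repeated accessions, were not named.

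All 24 arrays were fitted in limma (version 3.58.1, R 4.3.3) with a turned and an as-deposited coefficient for each age, which leaves 12 residual degrees of freedom. Tests were moderated and two-sided, with Benjamini-Hochberg adjustment over all features and a threshold of 0.05. P-values measure the spread between arrays, which was pooled over all ages, and the number of arrays limits the precision. The spread was larger at 7 wk than at the other ages, so p-values and intervals at 7 wk can be too small. An exact sign-flip test on 4 arrays cannot go below 0.125. The model was run on simulated data in which a feature had the same spread at every age. That simulation cannot show how the larger spread at 7 wk affects the calls. Genes named were the 12 called in each direction with the largest value and the same sign on all 4 arrays, 5 in each direction for the contrasts with the other ages, up to 3 called members of each of 28 lists (else the one with the smallest p), and a few genes of interest, of which ME1 was not tested. LSS, ALB, YBX3, USP35 and PPP1RL as turned calls, and other list members outside this rule, were named after their values were seen. The members, lists and tests were chosen with earlier results of these data known. Alternatives were another centring, scaling, weights, filters, arrays left out, a replicate block and single probes.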

Additional observations from a re-analysis of the deposited data

Results flagged for a closer look

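Of 117 groups of 4 arrays checked for 1 array apart from the other 3, of which chance flags about 5%, 4 were found. As deposited, replicate 3 stood apart in CYP2AC1 (-2.24) and CYP2C18 (-0.14), in opposite directions, and replicate 1 in LZIC (-0.22). Turned by dye, replicate 2 stood apart in EMCN, an endothelial sialomucin (0.43), which was not called.

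The contrast of 7 wk with the mean of the other ages passed the test of the difference itself in 7 named genes turned by dye, namely ABCA1 (-0.45), CDCP1 (0.48), GLCCI1 (-0.45), GPHN (0.35), SPATA46 (-0.34), USP35 (-0.36) and YBX3 (-0.26). As deposited it passed in 8, namely CTC1 (0.42), ENKUR (-0.29), FAM169A (-0.28), FAM171A1 (-0.40), SCAMP4 (0.47), SLC27A1 (0.40), SRRL (0.37) and TMEM167A (0.46). All of these genes were named because they passed this contrast, so the list adds no support to it. With scaling or with array weights, 0 of the 7 and 0 of the 8 were still called. FAM171A1 was near 0 on the 7 wk arrays themselves, with -0.06, -0.04, 0.04 and -0.19.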

How the results depend on the processing

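The turned count of 28 became 45 with centring on array medians and 288 without centring. It was 0 with scaling, with array weights and with the 7 wk arrays alone. In these fits 1157, 856 and 745 features had an unadjusted p under 0.05 in limma, against 1952 in the main fit. The turned count was 9 without the as-deposited coefficient, 16 with single probes, 19 without 1 wk replicate 4 and 7 with the sign of that array turned. It ranged from 36 to 481 with 1 array of 7 wk left out. Its contrast with the other ages, 12, became 42 without centring, 0 with scaling and with weights, 1 without the as-deposited coefficient, 21 without 1 wk replicate 4 and 6 with the sign of that array turned, and it ranged from 21 to 330. The count as deposited, 1995, became 3195 without centring, 551 with scaling, 89 with weights, 0 with the 7 wk arrays alone and 2112 without 1 wk replicate 4, and it ranged from 1096 to 1921 with 1 array of 7 wk left out. Its contrast with the other ages, 32, became 91 with array medians, 504 without centring, 5 with scaling, 0 with weights, 51 without the turned coefficient, 489 without both 7 wk replicate 1 and 11 wk replicate 4 and 61 with single probes, and it ranged from 0 to 523. A fit to the arrays of 7, 9 and 11 wk only, chosen after seeing the data, gave 0 turned calls (1321 at an unadjusted p under 0.05 in limma) and 747 as deposited.

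With the replicate number as a replicate block, the counts were 12 and 2 turned by dye and 1722 and 17 as deposited. The numbers only name the samples, since the mean correlation of same-numbered arrays over 15 pairs of ages was -0.017. The called genes named by the rule (13 and 7 turned by dye, 70 and 8 as deposited) kept their sign in the alternatives run, and 9 uncalled named values changed sign in at least 1. The other alternatives left each count within 1.5 times its value, but not always with the same features. Without both 7 wk replicate 1 and 11 wk replicate 4, the turned count was 34, of which 7 were among the 28. The contrast turned by dye was then 8, of which 1 was among the 12. As deposited, 1932 were called in that fit, 1212 of them among the 1995. The causes of these shifts were not tested. Signal over background could not be examined from ratios.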

Other observations

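Without replicate 1, several genes were called in the turned ratio that were not called with it, and they were picked here after their values were seen. CHIA (acidic chitinase, which digests chitin) had -0.44, 1.22, 0.73 and 0.90 on replicates 1 to 4, with a mean of 0.60 ± 0.15 (adjusted p = 0.102 in limma). Its value without replicate 1 was 0.89 ± 0.14 (adjusted p = 0.0195 in limma). Among the genes with a symbol that were called in that fit, it had the largest turned value, and replicate 1 had the opposite sign. RICTOR (a subunit of mTOR complex 2, which acts in insulin signalling) had 0.23, -0.16, -1.005 and -0.21, and its value of -0.59 without replicate 1 (adjusted p = 0.00235 in limma) rested on replicate 3. NFIL3, a circadian and immune transcription factor, had -0.02, 0.47, 0.35 and 0.32 (0.37 without replicate 1, adjusted p = 0.0283), and ZNF395 had -0.04, -0.33, -0.70 and -0.38 (-0.53, adjusted p = 0.0195). CHAC1, which degrades glutathione and is induced by amino acid shortage, was positive on all 4 arrays, with 0.12, 0.17, 0.31 and 0.23 (0.21 ± 0.04, adjusted p = 0.0519 in limma, and 0.26 without replicate 1, adjusted p = 0.0303).

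The 12 unnamed probes among the turned calls had 7 positive and 5 negative values, from -0.35 to 0.40.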
